A study of Mus musculus with 3 samples.

Results

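The 10 genes described here encode cytokine signalling proteins of mouse mammary cells: the SOCS family inhibitors Socs1, Socs2, Socs3 and Cish, the Janus kinases Jak1 and Jak2, and the transcription factors Stat3, Stat5a, Stat5b and Stat6. They were taken by gene name, which found 10 of the 22378 gene models listed in each of 3 RNA sequencing tables. Expression was measured in 3 pooled libraries, with 1 library per group. The LCC library held lung-colonizing cells, mammary cells of FVB.GFP females or DDAO-stained mammary cells of FVB mice that were sorted from dissociated lungs 1 day after injection into a vein. Each experiment used 8 donors and 4 FVB recipients in 2 injections of 2500000 cells, and LCC pooled 15 experiments, 42 lungs and 455880 cells. The E-Int29-Hi library held mammary cells from the EpCAM-intermediate, CD29-high gate of a cell sorter, labelled as containing the colonizing subset, with 3 samples combined. The MG library was labelled as undissociated mammary gland tissue, also with 3 samples combined, although another label calls it RNA of all cells. All were of FVB background. LCC was sorted on GFP or the dye, with no EpCAM or CD29 gate stated. The age of the animals was not given in the sources used here.

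Cytokine receptors without kinase activity of their own use Janus kinases bound to their tails, which phosphorylate STAT proteins after a ligand binds. The STAT proteins then enter the nucleus and switch on target genes. SOCS genes are among these targets, and their proteins block the kinases or the receptor, which closes a feedback loop. In the mammary gland, STAT5 proteins act downstream of prolactin in alveolar growth and milk production, STAT3 drives the cell death and remodelling of involution, and STAT6 acts downstream of interleukins 4 and 13.

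There were no replicates, so no difference has a replicate check, no test was possible, and every value describes these libraries. Levels are FPKM, fragments scaled by the length of the gene model and by the mapped fragments of the library, and the sources used here give no read numbers. Differences are log2 ratios of (FPKM + 1), taken over all genes that reached 1 FPKM in 1 or both of the libraries compared. The median gene stood at 0.26 (log2) for LCC against E-Int29-Hi, 0.01 for LCC against MG and -0.23 for E-Int29-Hi against MG. The log2 differences of members are best read against these medians. Summed over 6 basal epithelial markers, levels were 651 FPKM in LCC, against 7061 in E-Int29-Hi cells and 446 in MG. The sum over 6 luminal markers was 4420 FPKM in LCC, against 315 in E-Int29-Hi cells and 2352 in MG. The keratin genes and Cldn4 made up nearly all of it, and over the 6 genes 3 were above and 3 below MG in LCC, with a median log2 difference of -0.21. The hormone receptor genes of this list were lowest in LCC, Esr1 at 0.734 FPKM in LCC, against 3.06 in E-Int29-Hi cells and 10.6 in MG, and Pgr at 0.179 FPKM in LCC, against 2.07 in E-Int29-Hi cells and 43.9 in MG. The sum over 6 fibroblast markers was 1331 in LCC, against 129 in E-Int29-Hi cells and 2851 in MG. Summed over 8 leukocyte markers, levels were 331 FPKM in LCC, against 87.1 in E-Int29-Hi cells and 65.8 in MG, and 5 lung epithelium markers summed to 620.4 FPKM in LCC, against 8.96 in E-Int29-Hi cells and 1.87 in MG, most of it in LCC from Scgb1a1 (572 FPKM). The sum over 5 endothelial markers was 82.7 FPKM in LCC, against 76.2 in E-Int29-Hi cells and 459.5 in MG. Of the genes behind the sort, Itgb1, which encodes CD29, stood at 401 FPKM in LCC, against 296 in E-Int29-Hi cells and 198 in MG, and Epcam at 325 FPKM in LCC, against 279 in E-Int29-Hi cells and 209 in MG. In pooled RNA of this kind, fewer cells of a type and less RNA per cell cannot be told apart.

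All 10 genes were detected in each library, between 6.80 and 325 FPKM. LCC held the lowest level of Socs3, Jak1, Stat3 and Stat5a and the highest of Socs1 and Stat6. E-Int29-Hi held the highest level of Socs2, Socs3, Cish and Stat3, and MG that of Jak1, Jak2, Stat5a and Stat5b. Jak1 is nearly level between E-Int29-Hi and MG, and there its order turned with median ratio scaling. The Jak2 value of LCC carries the authors' status FAIL, so Jak2 is left out of the counts and its LCC value is given with that mark.

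**Figure D1:**
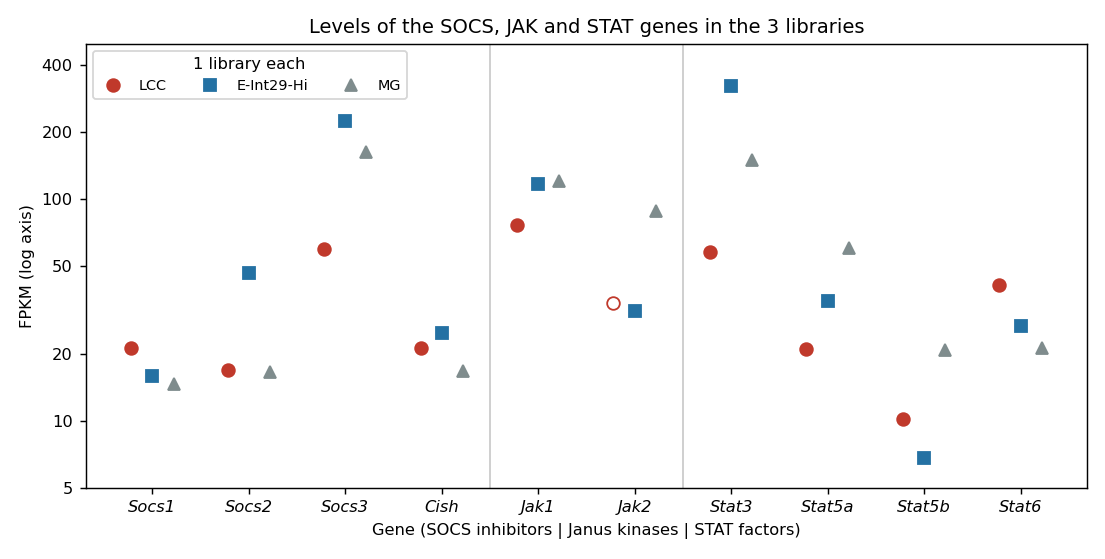
Level in FPKM (log axis) of each of the 10 genes in LCC (circles), E-Int29-Hi (squares) and MG (triangles), 1 library each and so without error bars; the open circle marks the Jak2 value with status FAIL. Stat3 (57.7 FPKM in LCC, against 325 in E-Int29-Hi cells and 149.6 in MG) and Socs3 (59.5 FPKM in LCC, against 224 in E-Int29-Hi cells and 164 in MG) are lowest in LCC and highest in E-Int29-Hi cells, while Stat6 is highest in LCC.

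Against E-Int29-Hi, 3 of the 9 genes counted were at least 2-fold lower in LCC, where 14.1% of all 12147 genes were. These were Stat3, Socs3 and Socs2, and Stat3 alone was at least 4-fold lower (background 4.35%). None of the 9 was at least 2-fold higher, against 21.2% of all genes, or 4-fold higher, against 4.64%. Their median was -0.60 (log2), beside 0.26 over all genes. Against MG, 3 of 9 were at least 2-fold lower in LCC, namely Stat5a, Socs3 and Stat3, where 12.8% of 12443 genes were. None was at least 2-fold higher (background 10.9%), and the median was -0.65, beside 0.01 over all genes. In neither direction was a member 4-fold apart between LCC and MG (background 1.33% higher and 2.63% lower). E-Int29-Hi against MG gave 2 of 9 at least 2-fold higher, Socs2 and Stat3 (background 8.99% of 12430 genes), and 1 lower, Stat5b (background 15.5%). Their median there was 0.31, beside -0.23 over all genes, and none was 4-fold apart (background 2.6% higher and 3.97% lower). The counts over all genes shift with scaling. With median ratio scaling, 1818 genes were at least 2-fold higher and 2253 lower in LCC than in E-Int29-Hi (2571 and 1717 as deposited), and 1710 higher and 1382 lower in E-Int29-Hi cells than in MG (1117 and 1930 as deposited). With TPM scaling, 978 of 14112 genes were higher and 3625 lower in LCC than in MG (1362 and 1597 of 12443 as deposited). For E-Int29-Hi cells against MG, 1161 of 14120 were higher and 3755 lower. TPM left out mitochondrially encoded, small RNA and predicted (Gm) genes. It also raised values to a sum of 1000000, so more genes passed the filter of 1 and the added 1 weighed less. The comparisons share libraries, and with so few genes these shares describe the members without showing that they stand apart from other genes.

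**Figure D2:**
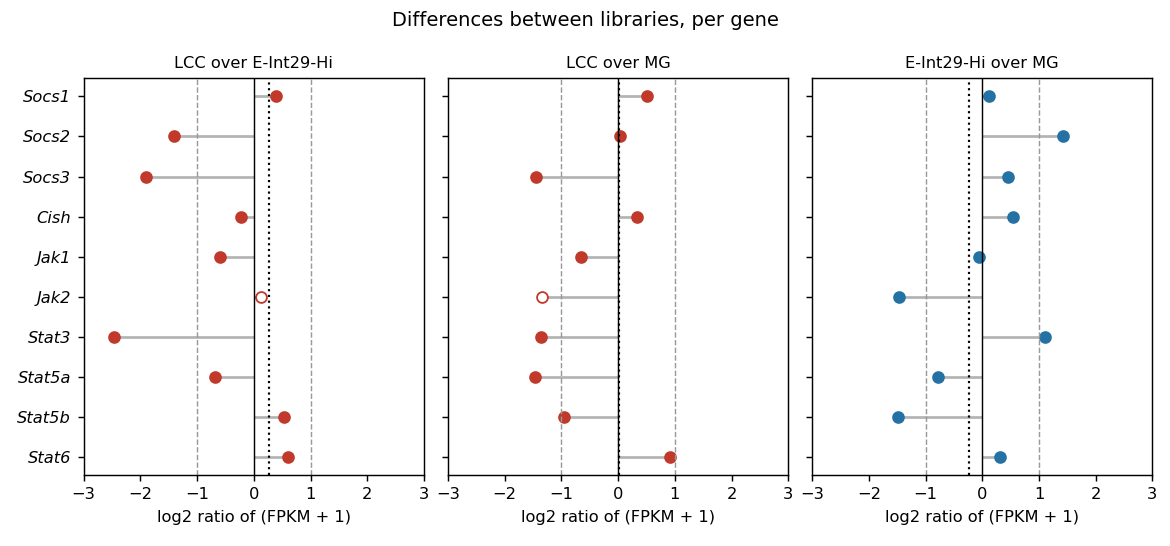
Log2 ratio of (FPKM + 1) of each of the 10 genes for LCC over E-Int29-Hi, LCC over MG and E-Int29-Hi over MG; dashed lines mark 2-fold, the dotted line the median of all genes counted, and open points a comparison that uses the Jak2 value with status FAIL. Stat3 lies farthest left in the first panel (-2.47), and Socs3, Stat3 and Stat5a lie left of the 2-fold line in the second.

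Among the inhibitors, Socs3 was the most abundant in every library. SOCS3 is the inhibitor that binds gp130, the shared receptor chain of interleukin 6 type cytokines, and it is induced by STAT3. Socs3 (ENSMUSG00000053113) stood at 59.5 FPKM in LCC, against 224 FPKM in E-Int29-Hi cells and 164 FPKM in MG. LCC was thus the low library, with log2 differences of -1.90 against E-Int29-Hi and -1.44 against MG, or -2.16 and -1.45 relative to the median gene. The difference between E-Int29-Hi and MG was smaller, at 0.45. By level among 22173 gene names, Socs3 had rank 1036 in LCC, against 220 in E-Int29-Hi cells and 230 in MG. Beside this, 7 genes known to respond to tissue dissociation summed to 937 FPKM in LCC, against 1617 in E-Int29-Hi cells and 2246 in MG. Of these 7, 3 were at least 2-fold lower in LCC than in E-Int29-Hi (14.1% of all genes) and 4 than in MG (12.8%). None was listed at 0. The sum over these genes was highest in MG, whereas Socs3 was highest in E-Int29-Hi cells. Their part in the Socs3 values was not tested.

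Socs2, best known for restraining growth hormone signalling and itself a target of STAT5, followed another order. It stood at 17.0 FPKM in LCC, against 46.6 in E-Int29-Hi cells and 16.6 in MG, so that E-Int29-Hi alone was high. The log2 difference was -1.41 for LCC against E-Int29-Hi and 1.43 for E-Int29-Hi against MG. LCC and MG differed by 0.03, a sign that turned with TPM scaling (-0.26). The high E-Int29-Hi values of Socs2 and Stat3 stand beside the basal markers. Of these 6 markers, 6 were at least 4-fold lower in LCC than in E-Int29-Hi (4.35% of all genes). In E-Int29-Hi cells, 6 were at least 2-fold higher (8.99% of all genes) and 5 at least 4-fold higher (2.6%) than in MG. None of the markers was listed at 0 in any library. Their part in these values was not tested.

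Socs1 and Cish varied less. Socs1, an inhibitor induced by interferons that blocks the kinases directly, stood at 21.2 FPKM in LCC, against 15.99 in E-Int29-Hi cells and 14.6 in MG. Cish, a STAT5 target that competes for STAT5 docking sites on receptors, stood at 21.3 FPKM in LCC, against 24.9 in E-Int29-Hi cells and 16.7 in MG. The highest and lowest libraries were 1.45-fold apart for Socs1 and 1.49-fold apart for Cish. For Cish, the log2 difference was -0.22 for LCC against E-Int29-Hi and 0.33 for LCC against MG.

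The RefSeq promoter windows on GRCm38.p6, from 250 bases before to 50 bases after a start site, were searched for the letters TTCNNNGAA, the core of STAT binding sites, and for TTCNNNNGAA, a spacing favoured by STAT6. Each pattern reads the same on both strands, and no 2 matches in the members overlapped. Windows were found for 9 of the 10 genes, 11 windows in all. Of these, 2 held TTCNNNGAA, those of Socs3 and Cish, against 8.30% of 32851 windows of all genes, and 0 held TTCNNNNGAA, against 6.95%. Those of Socs3 (chr11:117969317-117969616, minus strand), Cish (chr9:107296409-107296708, plus strand) and Stat3 (chr11:100939491-100939790, minus strand) are printed because the first pair holds the matches and Stat3 has the largest difference among the members. Each runs 5′ to 3′ on the strand of its gene, with the match in capitals.
Socs3: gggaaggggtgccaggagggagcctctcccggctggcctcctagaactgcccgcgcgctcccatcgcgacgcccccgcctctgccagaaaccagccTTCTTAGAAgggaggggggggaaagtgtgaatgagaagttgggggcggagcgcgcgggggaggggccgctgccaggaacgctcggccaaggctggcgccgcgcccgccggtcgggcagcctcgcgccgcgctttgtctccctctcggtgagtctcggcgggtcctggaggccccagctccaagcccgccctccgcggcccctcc
Cish: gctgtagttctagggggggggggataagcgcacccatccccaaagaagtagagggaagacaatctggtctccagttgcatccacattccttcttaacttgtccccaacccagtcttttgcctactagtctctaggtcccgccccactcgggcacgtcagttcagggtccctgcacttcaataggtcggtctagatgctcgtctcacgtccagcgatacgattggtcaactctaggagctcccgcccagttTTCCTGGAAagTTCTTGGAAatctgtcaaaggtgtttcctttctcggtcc
Stat3: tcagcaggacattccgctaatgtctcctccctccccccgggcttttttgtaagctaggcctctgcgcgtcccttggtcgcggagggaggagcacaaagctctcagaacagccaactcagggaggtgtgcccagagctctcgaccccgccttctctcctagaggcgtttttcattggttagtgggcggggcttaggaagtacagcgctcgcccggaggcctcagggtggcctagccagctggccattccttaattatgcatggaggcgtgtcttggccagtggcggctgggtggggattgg
The Socs3 match begins 154 bases before the RefSeq start, which lies 180 bases upstream of the nearest start of a coding transcript in GENCODE M21. Of the Cish matches, the first begins at the start itself and the second 11 bases after it, and GENCODE's coding transcript starts 51 bases downstream. Such matches are descriptions of letters, not of binding, and their absence from the other windows says nothing about the factors. Socs3 and Cish, the pair with a match, did not follow the same order of libraries: LCC was lowest for Socs3 and MG for Cish.

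Both kinases had lower deposited values in LCC than in MG. Jak1, which serves receptors for interleukin 6 type cytokines, interferons and interleukin 4, stood at 76.7 FPKM in LCC, against 116 in E-Int29-Hi cells and 121 in MG. The log2 difference for LCC was -0.60 against E-Int29-Hi and -0.65 against MG. Jak2, the kinase of the prolactin, growth hormone and GM-CSF receptors, stood at 34.2 FPKM in LCC (status FAIL), against 31.4 in E-Int29-Hi cells and 88.4 in MG. MG was thus the high library for Jak2, and the log2 difference of E-Int29-Hi against MG, both with status OK, was -1.47. For LCC it was -1.35 against MG, with the same mark. Measured within a library, Jak1 was 2.25 times Jak2 in LCC, against 3.71 times in E-Int29-Hi cells and 1.37 times in MG.

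Of the STAT genes, Stat3 (ENSMUSG00000004040) differed most. It stood at 57.7 FPKM in LCC, against 325 FPKM in E-Int29-Hi cells and 149.6 FPKM in MG. LCC was lowest and E-Int29-Hi highest, with a log2 difference of -2.47 for LCC against E-Int29-Hi, -1.36 for LCC against MG and 1.11 for E-Int29-Hi against MG. On the FPKM scale, Stat3 was 5.62-fold higher in E-Int29-Hi than in LCC. For LCC against E-Int29-Hi, 2.61% of all genes counted had a lower log2 difference, and 6.75% had for LCC against MG. By level, Stat3 had rank 1083 in LCC, against 139 in E-Int29-Hi cells and 257 in MG.

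Stat5a and Stat5b, the mediators of prolactin and growth hormone signals, were highest in MG. Stat5a stood at 21.2 FPKM in LCC, against 34.6 in E-Int29-Hi cells and 60.0 in MG. Its log2 difference was -1.46 for LCC against MG, -0.78 for E-Int29-Hi against MG and -0.68 for LCC against E-Int29-Hi. Stat5b stood at 10.2 FPKM in LCC, against 6.80 in E-Int29-Hi cells and 20.9 in MG, so that here E-Int29-Hi was lowest. Its log2 difference was -0.96 for LCC against MG and -1.49 for E-Int29-Hi against MG. Stat5a was 2.07 times Stat5b in LCC, against 5.08 times in E-Int29-Hi cells and 2.88 times in MG. These near copies are not fully separable: in GENCODE M21 transcripts their coding sequences were identical at 90.7% of 2288 aligned bases. Stretches of 50 bases shared with Stat5b made up 17.1% of those of Stat5a, and no other pair among the 45 pairs of members shared any. The sources used here do not give how the authors' counting divided shared reads. In the GRCm38.p6 gene table, Stat5b, Stat5a and Stat3 are consecutive protein-coding genes on chromosome 11, yet Stat3 was highest in E-Int29-Hi and the STAT5 genes in MG. MG also had the highest endothelial sum. Of its markers, 5 of 5 were at least 2-fold lower in LCC (12.8% of all genes) and in E-Int29-Hi cells (15.5%) than in MG. None of them was listed at 0. Of 4 adipocyte markers, Fabp4 stood at 60.4 FPKM in LCC, against 276 in E-Int29-Hi cells and 845 in MG, while Adipoq, Plin1 and Cidec lay between 0 and 1.67 FPKM in the 3 libraries. The fibroblast markers were highest in MG as well, with 6 of 6 lower in LCC and in E-Int29-Hi cells. Their sums were 1331 FPKM in LCC, against 129 in E-Int29-Hi cells and 2851 in MG. The part of the endothelial and fibroblast markers and of Fabp4 in the STAT5 and Jak2 values was not tested.

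Stat6 ran the other way. It stood at 41.1 FPKM in LCC, against 26.7 in E-Int29-Hi cells and 21.3 in MG. LCC was highest, with log2 differences of 0.61 against E-Int29-Hi and 0.92 against MG, both under 2-fold. Relative to the median gene these were 0.35 and 0.91. Beside this, 6 of 7 leukocyte markers counted were at least 2-fold higher in LCC than in E-Int29-Hi (21.2% of all genes) and 5 of 8 than in MG (10.9%). None of these markers was at 0 in any library. Their part in the Stat6 and Socs1 values, and that of the lung epithelium markers, was not tested.

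The make-up of each family does not depend on how the libraries are scaled against each other, since its members are compared within a library. Of the summed FPKM of Stat3, Stat5a, Stat5b and Stat6, Stat3 made up 44.3% in LCC, against 82.7% in E-Int29-Hi cells and 59.4% in MG. The share of Stat6 was 31.6% in LCC, against 6.79% in E-Int29-Hi cells and 8.48% in MG. Stat3 was therefore 1.403 times Stat6 in LCC, against 12.2 times in E-Int29-Hi and 7.01 times in MG. Stat5a and Stat5b made up 16.2% and 7.85% in LCC, 8.81% and 1.73% in E-Int29-Hi, and 23.8% and 8.28% in MG.

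Among the SOCS genes, Socs3 held the largest share throughout. It made up 50.02% of the 4 inhibitors in LCC, against 71.9% in E-Int29-Hi cells and 77.3% in MG. Socs1 made up 17.8% in LCC, against 5.13% in E-Int29-Hi cells and 6.92% in MG. Socs3 was thus 2.80 times Socs1 in LCC, against 14.0 times in E-Int29-Hi cells and 11.2 times in MG. Set against its inducer, Socs3 was 1.03 times Stat3 in LCC, against 0.691 times in E-Int29-Hi cells and 1.09 times in MG, so LCC and MG were close in this ratio although both genes were lower in LCC.

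**Figure D3:**
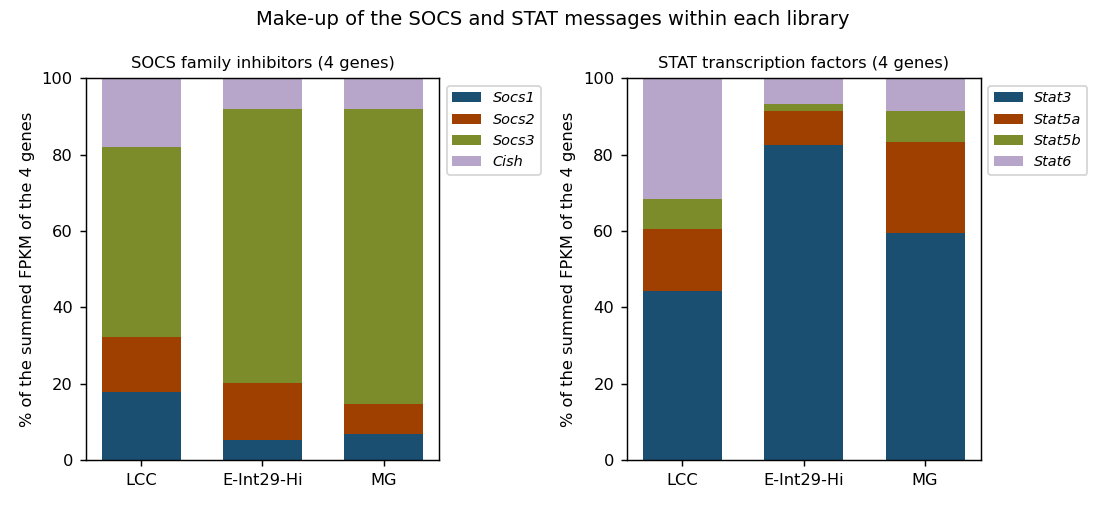
Share (%) of each gene in the summed FPKM of the 4 SOCS genes (left) and the 4 STAT genes (right) in LCC, E-Int29-Hi and MG, 1 library each. Stat6 makes up 31.6% of the STAT sum in LCC, against 6.79% in E-Int29-Hi cells and 8.48% in MG, and Socs3 makes up 50.02% of the SOCS sum in LCC, against 71.9% in E-Int29-Hi cells and 77.3% in MG.

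The 3 members with the widest range were Stat3, Socs3 and Stat5b, and the genes nearest to each were sought by Euclidean distance of centred log2(FPKM + 1) over the 3 libraries, among the 6793 genes that reached 10 FPKM. With only 3 libraries many genes lie close together, so this likeness is a description. Nearest to Stat3 were Sbno2 (distance 0.05, 47.2 FPKM in LCC, against 270.4 in E-Int29-Hi cells and 129 in MG), Osmr and Dusp6. Dusp6, which encodes a phosphatase of ERK kinases, stood at 23.6 FPKM in LCC, against 135 in E-Int29-Hi cells and 65.4 in MG. Osmr, the oncostatin M receptor chain that pairs with gp130, stood at 28.2 FPKM in LCC, against 159 in E-Int29-Hi cells and 76.8 in MG. Nearest to Socs3 were Sipa1l2 (distance 0.05, 6.27 FPKM in LCC, against 24.9 in E-Int29-Hi cells and 18.8 in MG), Baz2b and Obfc2a. Nearest to Stat5b were Kctd9 (distance 0.06, 13.6 FPKM in LCC, against 8.60 in E-Int29-Hi cells and 26.5 in MG), Znfx1 and Baiap2l1.

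Of the 9 other genes of these families, 8 reached 1 FPKM and were counted in each comparison, and Stat4, a factor of lymphocytes, stood below 1 FPKM throughout. Stat2, a factor downstream of type I interferons, stood at 2.83 FPKM in LCC, against 9.92 in E-Int29-Hi cells and 16.2 in MG. LCC was lowest for Stat2, with a log2 difference of -2.17 against MG. Socs5 stood at 27.9 FPKM in LCC, against 70.4 in E-Int29-Hi cells and 41.7 in MG, and Socs7 at 4.24 FPKM in LCC, against 11.0 in E-Int29-Hi cells and 5.73 in MG, both highest in E-Int29-Hi as Socs2 and Socs3 were. The levels of Socs4 and Socs6 were nearly even, at most 1.15-fold and 1.10-fold apart. Jak3, the kinase of the common gamma chain, stood at 3.28 FPKM in LCC, against 3.63 in E-Int29-Hi cells and 10.7 in MG. Tyk2, a kinase of interferon receptors, stood at 5.20 FPKM in LCC, against 2.02 in E-Int29-Hi cells and 4.53 in MG.

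The ligands and receptors that feed STAT3 lay on opposite sides. Of the 7 gp130 family ligands counted, 4 were at least 2-fold higher in LCC than in E-Int29-Hi (21.2% of all genes) and 4 than in MG (10.9% of all genes), and none was 2-fold lower in either comparison. Their median log2 difference was 1.05 against E-Int29-Hi and 1.01 against MG. Il6, the founding member, stood at 613 FPKM in LCC, against 43.1 in E-Int29-Hi cells and 182 in MG. Il11 stood at 91.6 FPKM in LCC, against 22.7 in E-Int29-Hi cells and 6.83 in MG. Lif, the ligand that starts involution, stood at 128 FPKM in LCC, against 61.7 in E-Int29-Hi cells and 51.1 in MG. Il6, Il11 and Lif were all highest in LCC. Clcf1, another member, stood at 37.2 FPKM in LCC, against 33.9 in E-Int29-Hi cells and 17.9 in MG. The leukocyte and lung epithelium sums given above were highest in LCC too. So was the luminal sum, although Esr1 and Pgr of that list were lowest there. The fibroblast sum was higher in LCC than in E-Int29-Hi cells but highest in MG. The part of all these markers in the ligand values was not tested.

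Of the 6 receptor genes of this family, 5 were at least 2-fold lower in LCC than in E-Int29-Hi (14.1% of all genes) and 4 than in MG (12.8%), with medians of -2.08 and -1.62. Il6st, which encodes gp130, stood at 41.0 FPKM in LCC, against 105 in E-Int29-Hi cells and 147 in MG. Il6ra, the interleukin 6 receptor chain, stood at 1.85 FPKM in LCC, against 25.6 in E-Int29-Hi cells and 17.3 in MG, a log2 difference of -3.22 against E-Int29-Hi and -2.68 against MG. Lifr stood at 8.24 FPKM in LCC, against 30.5 in E-Int29-Hi cells and 33.4 in MG. Cntfr, the ciliary neurotrophic factor receptor, stood at 2.63 FPKM in LCC, against 17.9 in E-Int29-Hi cells and 5.22 in MG. Il11ra1, the exception, stood at 10.3 FPKM in LCC, against 10.5 in E-Int29-Hi cells and 9.70 in MG. All of these apart from Il11ra1 were lowest in LCC. The basal marker sum in LCC (651 FPKM) was far below that of E-Int29-Hi cells (7061) but above that of MG (446). Of the 6 basal markers, 3 were above and 3 below MG in LCC. The part of those markers in the receptor values was not tested.

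The interferon and interleukin 10 receptor genes lay higher in LCC. Of 7 counted, 6 were at least 2-fold higher in LCC than in E-Int29-Hi (21.2% of all genes) and 3 than in MG (10.9%). None was 2-fold lower (14.1% and 12.8% of all genes). The medians were 1.35 and 0.70, beside 0.26 and 0.01 over all genes. Ifngr2 stood at 22.9 FPKM in LCC, against 4.79 in E-Int29-Hi cells and 9.80 in MG. Ifngr1, the other chain of the interferon gamma receptor, stood at 40.7 FPKM in LCC, against 13.3 in E-Int29-Hi cells and 29.4 in MG. Of the type I interferon receptor chains, Ifnar1 stood at 21.0 FPKM in LCC, against 8.09 in E-Int29-Hi cells and 12.6 in MG, and Ifnar2 at 46.5 FPKM in LCC, against 21.4 in E-Int29-Hi cells and 22.5 in MG. All 4 were highest in LCC. Of 8 common gamma, interleukin 4 and interleukin 13 receptor genes, 2 were at least 4-fold higher in LCC than in E-Int29-Hi (4.64% of all genes). These were Il2rg and Il7r, both known from lymphoid and myeloid cells, and none was 2-fold lower (14.1% of all genes). Against MG, 1 was at least 2-fold higher in LCC, Il15ra (10.9% of all genes), and 1 lower, Il2rb (12.8%). Il2rb stood at 0.712 FPKM in LCC, against 1.32 in E-Int29-Hi cells and 6.43 in MG (log2 difference -2.12 against MG). Il2rg stood at 20.2 FPKM in LCC, against 3.98 in E-Int29-Hi cells and 13.6 in MG. Il4ra, the receptor chain that recruits STAT6, stood at 91.0 FPKM in LCC, against 75.4 in E-Int29-Hi cells and 139 in MG, while Il13ra1 stood at 33.8 FPKM in LCC, against 59.5 in E-Int29-Hi cells and 30.2 in MG. Neither followed the order of Stat6. The leukocyte sum given above was also highest in LCC, and its part in the receptor values was not tested.

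Among receptors that signal through JAK2 and STAT5, Prlr, the prolactin receptor, was high only in MG, at 1.4996 FPKM in LCC, against 1.83 in E-Int29-Hi cells and 39.4 in MG. Ghr, the growth hormone receptor, stood at 6.67 FPKM in LCC, against 21.6 in E-Int29-Hi cells and 12.3 in MG, and so was highest in the library where Socs2 was. Csf2rb, the shared chain of the GM-CSF receptor, stood at 33.8 FPKM in LCC, against 12.8 in E-Int29-Hi cells and 58.2 in MG, and its near copy Csf2rb2 at 19.6 FPKM in LCC, against 12.4 in E-Int29-Hi cells and 47.3 in MG. Of the 8 genes of this list counted, 2 were at least 2-fold higher (21.2% of all genes) and 1 lower (14.1%) in LCC than in E-Int29-Hi. Against MG, 0 were higher (10.9% of all genes) and 3 lower (12.8%). Of the 20 ligands outside the gp130 family, 7 reached 1 FPKM in LCC or E-Int29-Hi. Csf2, which encodes GM-CSF, stood at 464 FPKM in LCC, against 0.694 in E-Int29-Hi cells and 18.7 in MG. Csf3, which encodes the granulocyte factor G-CSF, stood at 182 FPKM in LCC, against 84.8 in E-Int29-Hi cells and 193 in MG.

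The 13 other regulators of the pathway had mostly small differences. In LCC, 2 were at least 2-fold higher than in E-Int29-Hi (21.2% of all genes), Stam and Stam2, adaptors that bind Janus kinases. In the same comparison 1 was lower, Ptpn1 (14.1% of all genes). The phosphatase gene Ptpn1, whose product removes phosphate from JAK2, stood at 21.0 FPKM in LCC, against 46.7 in E-Int29-Hi cells and 34.2 in MG. Against MG, 0 were higher (10.9% of all genes) and 1 was lower (12.8%), Sh2b3, which encodes the JAK2 inhibitor LNK. Sh2b3 stood at 10.9 FPKM in LCC, against 14.9 in E-Int29-Hi cells and 32.7 in MG. In E-Int29-Hi cells, 1 was at least 2-fold higher than in MG (8.99% of all genes), Ptpn2. There 3 were lower (15.5% of all genes), Stam, Stam2 and Sh2b3. Between LCC and MG, Stam and Stam2 differed little (log2 0.27 and 0.24).

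Genes known as STAT targets were divided. Of 13 STAT3 targets counted, 5 were at least 2-fold lower (14.1% of all genes) and 3 higher (21.2%) in LCC than in E-Int29-Hi. Against MG, 4 were lower (12.8% of all genes) and 0 higher (10.9%). The medians were -0.90 and -0.46, beside 0.26 and 0.01 over all genes. Osmr is on this list as well as among the receptors. Igfbp5, an inhibitor of insulin-like growth factors in involution, stood at 26.1 FPKM in LCC, against 515 in E-Int29-Hi cells and 221 in MG. Pik3r1 stood at 19.5 FPKM in LCC, against 92.4 in E-Int29-Hi cells and 45.2 in MG, and Bcl3 at 42.4 FPKM in LCC, against 148 in E-Int29-Hi cells and 48.3 in MG, both highest in E-Int29-Hi as Stat3 was. In contrast, Pim1, a kinase gene, stood at 184.5 FPKM in LCC, against 67.4 in E-Int29-Hi cells and 110.5 in MG, and so was highest in LCC. Junb, a transcription factor gene, stood at 329 FPKM in LCC, against 614 in E-Int29-Hi cells and 453 in MG. Cd14, a receptor chain for lipopolysaccharide, stood at 51.1 FPKM in LCC, against 15.96 in E-Int29-Hi cells and 130.3 in MG, and so was lowest where Stat3 was highest.

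Of STAT5 targets, 6 of 8 counted were at least 2-fold lower in LCC than in MG (12.8% of all genes), while 1 was higher (10.9%). In E-Int29-Hi cells, 6 of 9 were lower than in MG (15.5% of all genes) and 1 higher (8.99%). The casein gene Csn2 stood at 2.56 FPKM in LCC, against 19.4 in E-Int29-Hi cells and 86.5 in MG. Elf5, the transcription factor of alveolar cells, stood at 0.964 FPKM in LCC, against 2.90 in E-Int29-Hi cells and 15.6 in MG. Both were highest in MG, as were Stat5a and Stat5b. Esr1, Pgr, the endothelial and fibroblast markers and Fabp4 were highest in MG too, and their part in these values was not tested. Ccnd1, cyclin D1, stood at 52.7 FPKM in LCC, against 11.5 in E-Int29-Hi cells and 16.8 in MG, and Bcl6, a transcriptional repressor gene, at 19.8 FPKM in LCC, against 70.1 in E-Int29-Hi cells and 19.9 in MG. Bcl6 was high in E-Int29-Hi alone, as Socs2 was.

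The 10 genes listed as STAT6 targets, known mainly from macrophages and dendritic cells, had no common direction. Of 8 counted for LCC against MG, 2 were at least 2-fold higher (10.9% of all genes) and 4 lower (12.8%). The chemokine genes Ccl17 and Ccl22 stood at 47.0 and 53.5 FPKM in LCC, 0.989 and 1.84 in E-Int29-Hi, and 0.997 and 1.61 in MG. Retnla, a secreted protein of alternatively activated macrophages, stood at 1.32 FPKM in LCC, against 69.1 in E-Int29-Hi cells and 38.3 in MG.

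**Figure D4:**
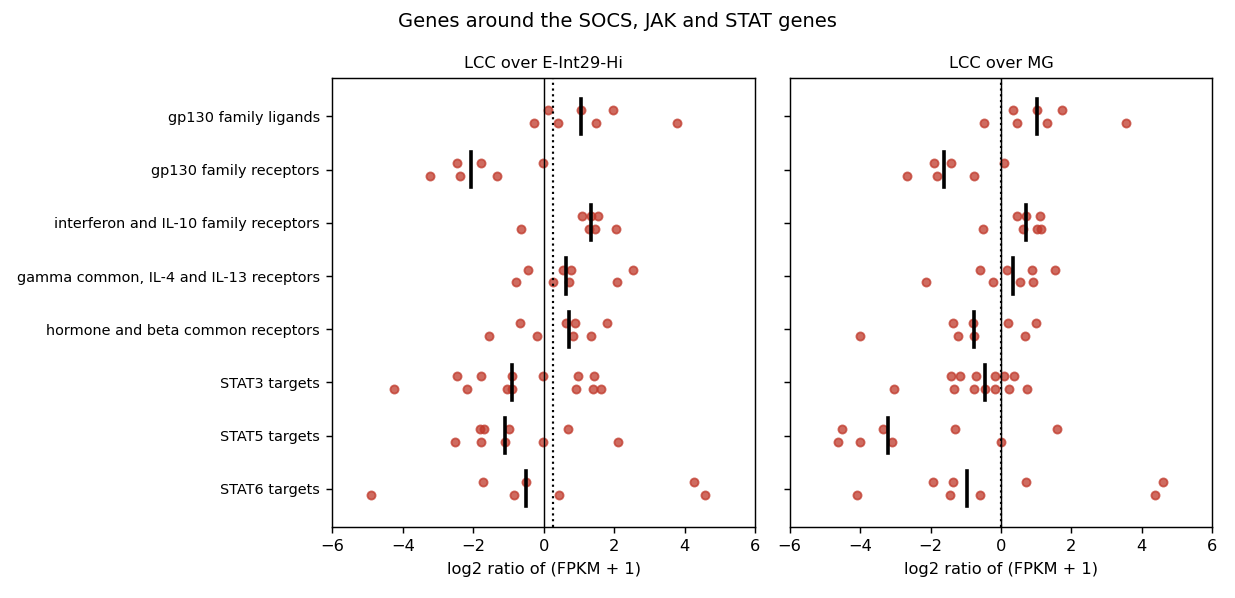
Log2 ratio of (FPKM + 1) for LCC over E-Int29-Hi (left) and LCC over MG (right), 1 point per gene that reached 1 FPKM, by list; black bars are list medians and dotted lines the median of all genes counted. The gp130 family ligands have medians of 1.05 and 1.01, and the receptors of that family -2.08 and -1.62.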

How the data were processed

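Poly(A) RNA of 3 pooled samples was made into TruSeq libraries and sequenced, per the labels' protocols. The authors deposited an FPKM value and a status per gene and library. Per the submitters' processing notes, TopHat 1.4.1, Cufflinks 1.3.0 and build mm9 were involved; the sources used here give neither their steps nor the annotation. Total read numbers are unknown, so no interval could be given. Only genes whose status was OK in each of the 3 libraries entered, and of several models of a name the one with the highest summed FPKM was kept, which left 22077 names. Genes that reached 1 FPKM in either library were given a log2 ratio of FPKM + 1, called at 2-fold and 4-fold. No test was possible, each group having 1 library. The members and lists were chosen with earlier results of these data known. Genes named outside the members were the other family genes (1 of these 9 is not reported here), up to 4 of the highest genes of each list, those at 5 FPKM or more and 4-fold apart, and the 3 nearest to each of the 3 most variable members. Il11ra1, Bcl3, Pim1, Sh2b3 and Stam2 lie outside this rule and were chosen after their values were seen. Of 178 distinct list genes, 1 (Cebpd) was not among the gene names listed. Jak2 was listed but, by its status in LCC, was not among the names analysed. Promoters came from RefSeq (GRCm38.p6) and transcripts from GENCODE M21, a build other than the authors'. Python 3.11.15, numpy 2.4.6, pandas 2.3.3, Biopython 1.88 and matplotlib 3.10.9 were used.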

Additional observations from a re-analysis of the deposited data

How the results depend on the processing

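Of 9 alternatives, 8 were planned and 1 (status OK needed only in the libraries compared) was chosen after seeing the data. Of the values for counts and medians of the members, 130 stayed within 1.5 times for counts and within a 1.5-fold ratio for medians, and 5 counts did not. The median of the members for E-Int29-Hi against MG was 0.63 (log2) with median ratio scaling and 0.14 with TPM, in place of 0.31. The median over all genes moved the same way, to 0.07 and -0.47, in place of -0.23. Members at least 4-fold lower in LCC than in E-Int29-Hi numbered 2 with median ratio scaling and 2 with TPM, in place of 1, because Socs3 then stood at -2.18 and -2.03 (log2). The count over all genes rose too, to 700 of 12233 and 911 of 13551, from 528 of 12147. With TPM, 1 member in place of 2 was at least 2-fold higher in E-Int29-Hi cells than in MG, since Stat3 stood at 0.94. Over all genes, 1161 of 14120 were, in place of 1117 of 12430. With every status, and with status OK in the compared pair, 2 in place of 1 were at least 2-fold lower in E-Int29-Hi cells than in MG, since Jak2 (-1.47) was added. Over all genes, 1945 of 12513 and 1935 of 12452 were lower, in place of 1930 of 12430. Over single members, 240 values stayed on their side of 2-fold. The other filters, the summing of models and the status rules could not change a member's own value. They could move member counts and medians only by adding Jak2, so the values that stayed under them are no check. Stat5b passed 2-fold in LCC against MG with a pseudocount of 0.1 (-1.02) and with TPM (-1.30). Of the signs, 3 near 0 turned, Socs2 for LCC against MG (-0.26, TPM), Jak1 (0.28, median ratio) and Socs1 (-0.05, TPM) for E-Int29-Hi against MG. Over all alternatives, Stat3 lay between -2.76 and -2.39 for LCC against E-Int29-Hi and Socs3 between -2.18 and -1.83. The median gene stood at 0.15, -0.35 and -0.47 with TPM for LCC against E-Int29-Hi, LCC against MG and E-Int29-Hi against MG. No paired analysis was possible because each group had 1 library, and no library could be left out. Counting error could not be given, since FPKM hold no read numbers.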
